A study of Mus musculus with 165 samples.

Results

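The BCL2 family survival genes were 10 genes taken by their symbols from the table of normalized read counts, and their levels were followed through a macrophage and a neutrophil differentiation of PUER cells. The 10 genes, out of 36255 in the table, were the anti-apoptotic genes Mcl1, Bcl2l1, Bcl2, Bcl2a1b and Bcl2a1d, the effectors Bax and Bak1, and the BH3-only genes Bcl2l11, Bbc3 and Pmaip1. The rule used their symbols and no measured value. Of the 10, 9 reached a normalized count of 5 in at least 1 library and were tested among 17414 genes, and Pmaip1 was not.

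RNA-Seq was performed on PUER cells, a line of Spi1-/- bone marrow-derived mouse progenitors in which PU.1 is supplied as a fusion with an estrogen receptor, so that 4-hydroxytamoxifen (OHT) induces PU.1 activity. Undifferentiated cells (3 libraries) were grown in IL3 at 5 ng/ml without OHT. IL3-OHT cells, the macrophage differentiation, stayed in IL3 and received 200 nM OHT, and 81 libraries covered 27 time points from 1h to 168h. GCSF-OHT cells, the neutrophil differentiation, had IL3 replaced with GCSF at 10 ng/ml for 48 h (GCSF 0h, 3 libraries) and then received 100 nM OHT, with 78 libraries over the same 27 time points. Each group had 3 libraries except GCSF-OHT 96h, 112h and 152h, which had 2. Part of the medium was replaced and OHT renewed at 40h, 88h and 136h in both arms. The titles of the GCSF 0h libraries name OHT, whereas their treatment field and the protocol place them before its addition. Cytokine, OHT dose and the 48 h of pre-treatment differed together between the arms, and their effects cannot be told apart here. No culture without OHT was sampled after 0h. Within an arm, OHT therefore cannot be told apart from time in culture, renewal of the medium or the trypsin used at later time points. The study's methods call the replicates biological and grew each time point in a 48-well plate of its own. All came from 1 line, so p-values measure the spread between cultures of that line, and a plate cannot be told apart from its time point.

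The libraries held 14600246 to 33147945 reads assigned to genes (median 21960878), so that 1 read was worth 0.652 to 1.84 normalized counts and a count of 3 reads, used here as the detection floor, 1.96 to 5.51. Spi1, which encodes PU.1, had 4482 to 13387 normalized counts in every library. Reads of the fusion and of the deleted gene share this symbol, so these values do not check the deletion. All 10 neutrophil markers examined were above 3 reads in undifferentiated cells. Of 4 progenitor markers, 3 were above 3 reads in undifferentiated cells, GCSF 0h and both 168h groups, and Cd34 was not in any of them. The summed level of the progenitor markers was 11239 to 12502 in undifferentiated cells and 5836 to 6456 at GCSF 0h. It was 2804 to 3063 in IL3-OHT 168h and 2821 to 2946 in GCSF-OHT 168h. The summed level of the neutrophil markers was 257333 to 290108 in IL3-OHT 168h and 744905 to 791587 in GCSF-OHT 168h. Of 8 macrophage markers, 7 were above 3 reads in undifferentiated cells and in IL3-OHT 168h, 5 at GCSF 0h and 6 in GCSF-OHT 168h. Their summed level was 2772 to 3045 in undifferentiated cells, 13875 to 15121 in IL3-OHT 168h and 12757 to 14502 in GCSF-OHT 168h. C1qa, a marker of mature macrophages, was at or under 3 reads in all 4 groups. IL3-OHT 96h and 144h (6 libraries) stood apart from the time points around them and were left out of the fit, except where they are named. The study left them out too. The 6 libraries of 120h carry names from another series than the rest.

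BCL2 family proteins set the threshold for apoptosis at the outer mitochondrial membrane. BAX and BAK permeabilize that membrane and release cytochrome c, the anti-apoptotic proteins bind and restrain them, and BH3-only proteins activate the effectors or occupy the anti-apoptotic proteins. In myeloid cells, cytokines such as IL3 and GCSF keep cells alive in part through these genes, and neutrophils depend strongly on the short-lived protein MCL1.

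The Bcl2a1 genes encode A1, an anti-apoptotic protein found in activated myeloid and lymphoid cells, and lie close together on mouse chromosome 9 as near-identical copies. Bcl2a1b (chr9:89199209-89207827, plus strand) and Bcl2a1d (chr9:88723285-88731914, minus strand) are members, and their paralog Bcl2a1a (chr9:88956900-88962419, plus strand) was examined with them. Coordinates are those of GENCODE M21 on GRCm38. The transcripts of Bcl2a1a and Bcl2a1b were 98.2% identical, those of Bcl2a1a and Bcl2a1d 98.8%, and those of Bcl2a1b and Bcl2a1d 99.1%. Only 27.3% of the 31-base windows of Bcl2a1b and 10.9% of those of Bcl2a1d were absent from the other 2 paralogs, so the split of reads between them is uncertain, and their sum is given beside each. Their promoters are shown because a PU.1 sequence lies in all 3. The window runs from 250 bases before to 50 bases after the start in RefSeq on GRCm38.p6, at chr9:88956670-88956969 for Bcl2a1a and chr9:89199023-89199322 for Bcl2a1b, both on the plus strand, and at chr9:88731801-88732100 for Bcl2a1d, on the minus strand. Capitals mark the PU.1 motif searched for, GAGGAAGT.
Bcl2a1a: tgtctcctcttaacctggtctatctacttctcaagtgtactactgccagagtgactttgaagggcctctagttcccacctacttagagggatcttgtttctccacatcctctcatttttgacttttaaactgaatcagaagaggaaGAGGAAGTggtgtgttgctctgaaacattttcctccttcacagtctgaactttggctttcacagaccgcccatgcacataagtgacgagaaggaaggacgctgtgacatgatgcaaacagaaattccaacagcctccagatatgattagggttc
Bcl2a1b: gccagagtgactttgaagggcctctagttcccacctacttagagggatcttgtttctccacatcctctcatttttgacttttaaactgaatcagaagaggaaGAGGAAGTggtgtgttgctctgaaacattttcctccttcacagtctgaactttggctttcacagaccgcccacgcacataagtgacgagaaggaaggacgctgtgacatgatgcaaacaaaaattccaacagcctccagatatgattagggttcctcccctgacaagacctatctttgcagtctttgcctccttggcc
Bcl2a1d: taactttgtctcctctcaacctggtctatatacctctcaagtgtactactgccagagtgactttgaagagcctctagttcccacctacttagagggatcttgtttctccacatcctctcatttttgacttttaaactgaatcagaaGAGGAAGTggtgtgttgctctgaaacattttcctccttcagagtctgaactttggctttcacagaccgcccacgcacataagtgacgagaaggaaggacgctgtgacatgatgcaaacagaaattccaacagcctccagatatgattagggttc
The motif began 104 bases before the start of Bcl2a1a and Bcl2a1d and 148 bases before that of Bcl2a1b. Aligned to each other, the promoters of Bcl2a1a and Bcl2a1b were 99.2% identical over 256 bases, so the copies are not independent occurrences. Of the 10 genes looked at, Bcl2a1a and the 9 members other than Pmaip1, 4 had the motif on either strand in a promoter, the other being Bak1 (on the strand opposite to the gene, 22 bases before the start). By promoter, 4 of the 15 promoters of these genes had it, and 3.202% of all 32851 promoters in the RefSeq table did. The STAT motif TTCNNNGAA, which can share its letters GAA with the PU.1 motif, was in 0 of the 15 promoters and in 8.30% of all promoters. A motif match is a description of the sequence and is not a measured binding site.

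The other members are spread over the genome on GRCm38. Mcl1 lies at chr3:95658788-95663176 (plus strand), Bcl2l1 at chr2:152780668-152831728 (minus) and Bcl2 at chr1:106538178-106714274 (minus). Bax lies at chr7:45461697-45466898 (minus), Bak1 at chr17:27019810-27029009 (minus), Bbc3 at chr7:16308393-16318205 (plus) and Bcl2l11 at chr2:128126038-128162547 (plus). Values are over all exons of each gene.

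The members differed widely in level. Normalized counts are reads divided by the size factor of their library. Per kb of exon, Mcl1 was the most abundant member in undifferentiated cells at 9682 ± 599 normalized counts (SD, n = 3), followed by Bax at 2285 ± 104 and Bbc3 at 756 ± 48.5. Bcl2l11 stood at 575 ± 21.1, Bcl2l1 at 395 ± 15.4, Bak1 at 335 ± 20.6 and Bcl2 at 35.4 ± 1.79, while Bcl2a1b was near the floor at 1.60 ± 2.77 and Bcl2a1d had no reads. In GCSF-OHT 168h, Mcl1 was again the highest at 8953 ± 240 per kb, and Bcl2l1 stood below Bak1, at 188 ± 16.0 against 372 ± 23.8. In IL3-OHT 168h, Bcl2a1d reached 242 ± 31.6 and Bcl2a1b 212.5 ± 23.1 per kb, both above Bcl2 at 25.8 ± 1.94. This order rests on the division by exon length. Before it, Bcl2 had a mean of 236 normalized counts there, above Bcl2a1d at 208.6 and Bcl2a1b at 173.6. All other levels below are normalized counts per gene, not divided by length, and changes are log2 differences of (normalized count + 1) from limma, called at an adjusted p under 0.05 and a size over 0.58.

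To describe the family after 48 h in GCSF in place of IL3, without OHT, GCSF 0h was compared with undifferentiated cells. Loss of IL3 and gain of GCSF came together, so their effects cannot be told apart. Of the 9 tested members, 6 changed, beside 33.7% of all genes. Bcl2 and Bak1 rose, and Mcl1, Bcl2l1, Bcl2l11 and Bbc3 fell. Mcl1, which binds BIM and BAK, had 32579, 31354 and 35348 normalized counts in the undifferentiated libraries and 8571, 8440 and 8401 at GCSF 0h. The groups were far apart, and the change was -1.96 ± 0.084 (SE, adjusted p = 1.5e-43). Bcl2l11, which encodes the BH3-only protein BIM, fell from 4633, 4435 and 4773 to 1360, 1241 and 1301, a change of -1.83 ± 0.051 (adjusted p = 2.8e-61). Thus the most abundant anti-apoptotic transcript and that of a potent BH3-only protein were both lower in every GCSF 0h library than in any undifferentiated library. In bulk RNA, fewer cells expressing a gene and less RNA per cell cannot be told apart.

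Bcl2, the founding anti-apoptotic member, moved the opposite way. Its level was 309, 323 and 342 in undifferentiated cells and 766, 761 and 695 at GCSF 0h, which did not overlap, with a change of 1.19 ± 0.096 (adjusted p = 1.3e-21). Bcl2l1, whose main product is BCL-XL, fell by 0.74 on the log2 scale (SE 0.066, adjusted p = 7.8e-19), from 1895, 1777 and 1769 to 1222, 1020 and 1032. Bbc3, which encodes the p53 target PUMA, fell by 0.82 (SE 0.15, adjusted p = 3.9e-07). Bak1 rose by 0.66 (SE 0.071, adjusted p = 1.1e-14), but without replicate 3 the change was 0.578 and not past the threshold. Bax had a change of -0.15 (adjusted p = 0.0996). Bcl2a1b and Bcl2a1d were at or under 3 reads in both groups. The summed macrophage markers were 2772 to 3045 in undifferentiated cells and 1016 to 1364 at GCSF 0h, and their part in these changes was not tested.

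**Figure D1:**
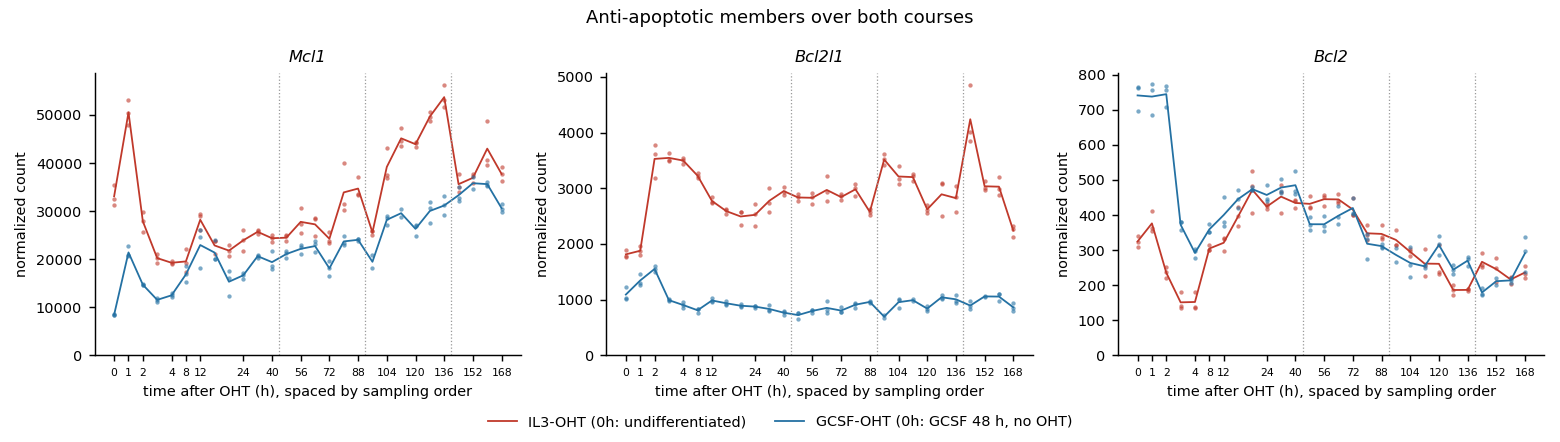
Normalized counts (y axes) of Mcl1, Bcl2l1 and Bcl2 in every library (points) with the mean of each time point (lines) in IL3-OHT (red) and GCSF-OHT (blue); time points on the x axis are spaced by sampling order, not to scale, and dotted lines mark renewal of the medium at 40h, 88h and 136h. Mcl1 is lowest at GCSF 0h (8401 to 8571), Bcl2l1 is lower in GCSF-OHT than in IL3-OHT, and Bcl2 starts high at GCSF 0h (695 to 766).

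The course after OHT was then followed in each arm. Over the whole course, 9 of the 9 tested members changed in IL3-OHT (69.7% of all genes) and 7 of 9 in GCSF-OHT (47.7%), where Bax and Bak1 did not pass. The comparisons of each time point with undifferentiated cells share those 3 libraries, as those in GCSF-OHT share the GCSF 0h libraries. Per time point, a median of 28.4% of all genes differed from undifferentiated cells in IL3-OHT and 14.5% from GCSF 0h in GCSF-OHT.

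Mcl1 was upregulated within 1h of OHT in both arms. In IL3-OHT it reached 50475, 53123 and 48004 at 1h, above all 3 undifferentiated libraries (0.61, with 4.42% of all genes called in this step). It then fell by 0.86 from 1h to 2h (15.2% of all genes) and was lowest at 4h, at 19525, 19025 and 19205, or -0.78 against undifferentiated cells. A higher phase followed, with 53179, 51672 and 56291 at 136h, which was 0.70 above undifferentiated cells and overlapped with the 1h libraries. In GCSF-OHT, Mcl1 rose from 8571, 8440 and 8401 to 20579, 20805 and 22829 at 1h, a change of 1.34 (6.05% of all genes). It was back at 11960, 11178 and 11462 at 3h, 0.44 above GCSF 0h and not past the threshold, and was higher than at GCSF 0h at 25 of 27 time points, all but 3h and 4h, with the largest change, 2.08, at 152h. The first-hour rise was larger in GCSF-OHT than in IL3-OHT, by 0.72 ± 0.12 (adjusted p = 1.2e-06), when 2.81% of all genes differed in this way.

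Bcl2l1 was called higher than at the start at most time points after OHT in IL3 and at none in GCSF, where an early rise stayed under the threshold of size. In IL3-OHT it rose between 1h and 2h, from 1867, 1805 and 1962 to 3621, 3778 and 3184 (0.91), and was higher than in undifferentiated cells at 18 of 25 time points, with the largest change, 0.97, at 3h, and 0.30 at 168h, which was not called. In GCSF-OHT it was 1553, 1605 and 1494 at 2h, which was 0.51 above GCSF 0h (adjusted p = 2.0e-10) and not called. It was 989, 975 and 1008 at 3h, a fall of 0.65 (2.86% of all genes), and it was lower than GCSF 0h at 2 of 27 time points, 48h and 96h. At 8h the difference between the arms was largest, at -1.99, and Bcl2l1 was lower in GCSF-OHT than in IL3-OHT at 24 of the 25 shared time points, the exception being 1h, at -0.48. The share of all genes that differed between the arms had a median of 24.8% over these time points.

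Bcl2 fell early in both arms. In IL3-OHT it went from 411, 355 and 363 at 1h to 236, 220.1 and 250.4 at 2h and to 134, 179.1 and 140 at 3h. It rose again by 1.01 from 4h to 8h (10.5% of all genes), stood at 482, 527 and 406 at 20h, and ended at 233, 220.5 and 255 at 168h, -0.46 against undifferentiated cells and under the threshold of size. In GCSF-OHT it stayed at 757.5, 767 and 709 at 2h and fell to 379, 381 and 357 at 3h, a step of -0.998. From 3h on it was lower than at GCSF 0h at all 25 time points, with the largest change, -2.04, at 144h, when the libraries held 175.2, 191.2 and 170.9. Thus the higher level of GCSF 0h was lost after OHT. At 1h to 4h, but at no later shared time point, Bcl2 was higher in GCSF-OHT than in IL3-OHT, by up to 1.66 at 2h.

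Bcl2a1b and Bcl2a1d rose from near absence in IL3-OHT. Bcl2a1d had no reads in the 3 undifferentiated libraries. Its normalized counts were 40.5, 37.5 and 24.8 at 8h, lay between 190.2 and 222 by 72h and were 179.3, 233 and 213 in the last libraries, at 168h. It was higher than in undifferentiated cells at all 25 time points tested, at 1h on as little as 7.68, 2.12 and 1.95. Bcl2a1b, with 3.93, 0 and 0 in undifferentiated cells, held 10.1, 8.57 and 14.3 by 8h and 96.6, 101.2 and 79.9 by 72h. It ended at 154.4, 192.1 and 174.4 and was higher at 23 of 25 time points. Bcl2a1a was higher at 21, from 8h on. At 168h Bcl2a1d was at least 59.4-fold higher than in undifferentiated cells, against a floor of 3 reads per library, and Bcl2a1b was 151-fold higher with a 95% counting interval of 51.4 to 735, from 525 reads against 3, all in 1 undifferentiated library. The sum of the 3 genes rose 506-fold (172.9 to 2457, from 1758 reads against the same 3), with a fitted change of 8.41 ± 0.44.

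In GCSF-OHT the same genes stayed low. At 168h Bcl2a1b had 0, 0 and 5.99 normalized counts, Bcl2a1d 2.95, 0 and 4.28, and Bcl2a1a 9.84, 15.6 and 13.7. Bcl2a1a was higher than at GCSF 0h at 23 of 27 time points, whereas Bcl2a1b was at 8 and Bcl2a1d at 7. The sum was 29.5-fold higher at 168h than at GCSF 0h (7.77 to 250, from 53 reads against 2), a fitted change of 3.53, and it passed the threshold from 8h on. It was 32.7-fold higher in IL3-OHT 168h than in GCSF-OHT 168h (24.9 to 43.8). These intervals cover counting error only. The summed macrophage markers were 13875 to 15121 in IL3-OHT 168h and 12757 to 14502 in GCSF-OHT 168h. Of the 8 macrophage markers, 7 were above 3 reads in IL3-OHT 168h and 6 in GCSF-OHT 168h, where Mrc1 was not, and their part in the gap was not tested. Gm29094 overlaps Bcl2a1b on the same strand and was above 3 reads in 1 library.

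**Figure D2:**
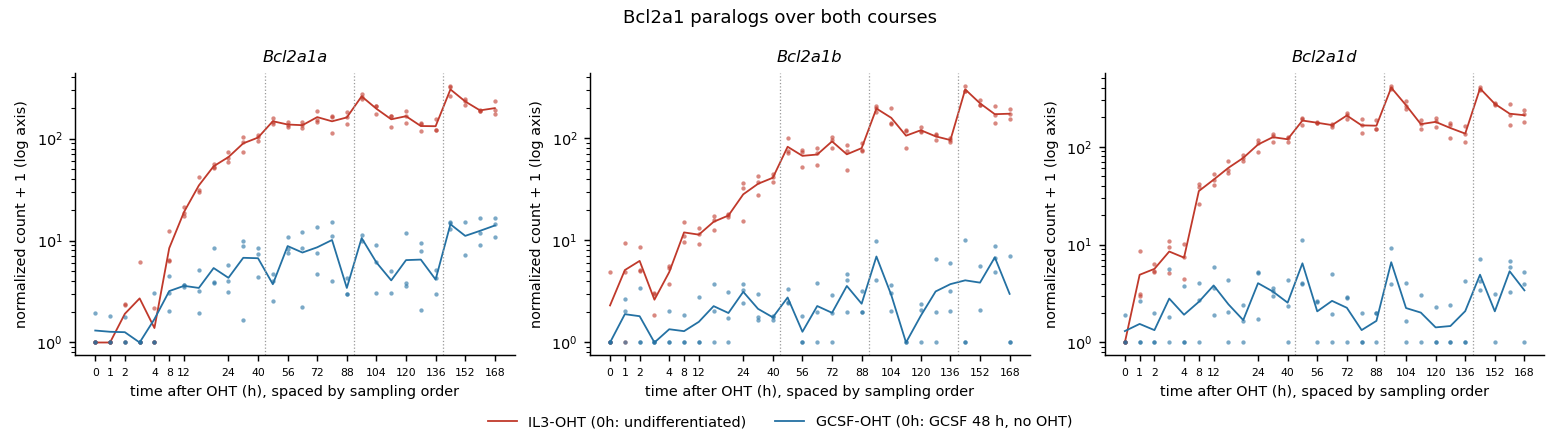
Normalized count + 1 (log y axis) of Bcl2a1a, Bcl2a1b and Bcl2a1d in every library (points) with means (lines), IL3-OHT in red and GCSF-OHT in blue, over time points spaced by sampling order; dotted lines mark renewal of the medium. The IL3-OHT libraries climb to 172.2 to 232, 154.4 to 192.1 and 179.3 to 233 at 168h, while no GCSF-OHT library exceeds 15.6 at that time.

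Bax and Bak1, the effectors, varied least. Bak1 ranged from 736 to 1458 over all libraries, 1.98-fold, and Bax from 2147 to 7275, 3.39-fold, against 5.72-fold to 7.89-fold for Bcl2, Bcl2l1, Mcl1, Bcl2l11 and Bbc3. In IL3-OHT Bax fell by 0.64 from 1h to 2h and rose by 0.78 from 4h to 8h, from 3073, 2855 and 3141 to 5061, 5269 and 5207. It was higher than in undifferentiated cells at 7 time points between 80h and 136h, reaching 7275, 6210 and 7148 at 136h (0.93), and fell by 0.82 from 136h to 152h (16.0% of all genes). Bak1 was higher at 13 time points between 12h and 112h, with 1319, 1360 and 1345 at 56h against 847, 819 and 750.4 in undifferentiated cells (0.74). In GCSF-OHT, neither was called against GCSF 0h at any of the 27 time points. Bax was lower in GCSF-OHT than in IL3-OHT at 9 of 25 shared time points, between 80h and 168h, by up to 1.14 at 136h, whereas Bak1 was called at 0 of 25. Gm45808 overlaps Bax on the same strand (0 to 110 normalized counts, median 6.53), and Ggnbp1 overlaps Bak1 on the opposite strand (6.15 to 85.05, median 33.3).

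Bcl2l11 fell sharply in IL3-OHT from 2h on. At 1h it was 4412, 4194 and 4046, below all 3 undifferentiated libraries and not called. It was 4752, 4767 and 4879 at 2h, overlapping with undifferentiated cells. It then fell by 0.65 from 2h to 3h (8.41% of all genes) and by 1.11 from 4h to 8h, to 1024, 984 and 1062. The lowest mean was at 12h, at 863, 895 and 899, or -2.38 against undifferentiated cells, and the gene stayed lower at all 23 time points from 3h on. It rose in part later, with 2655, 2635 and 2577 at 136h, and fell by 0.93 from 136h to 152h. In GCSF-OHT, by contrast, Bcl2l11 rose at 1h from 1360, 1241 and 1301 to 2710, 2556 and 2656 (1.02), was higher than GCSF 0h at 1h and 2h only, and held 1421, 1330 and 1377 at 3h. The difference of the 1h changes was 1.15 ± 0.072 (adjusted p = 9.9e-28), and that of the 8h changes 2.11, when 27.4% of all genes differed. Mcl1 and Bcl2l11 thus rose together in the first hour in GCSF-OHT, and in IL3-OHT only Mcl1 of the pair passed the threshold in that hour.

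Bbc3 went down and then up in IL3-OHT. It was lower than in undifferentiated cells at 10 time points between 3h and 48h, with 898, 627 and 799 at 20h against 1718, 1516 and 1583 (-1.06). From 72h to 80h it rose by 1.00, from 1060, 1010 and 1191 to 2742, 2009 and 1838, when 4.67% of all genes were called in that step. It peaked at 136h with 4070, 3060 and 4443, 1.25 above undifferentiated cells, and fell by 1.505 to 1230, 1454 and 1351 at 152h. In GCSF-OHT it stayed between 563 and 1209 normalized counts at every time point, and was lower than GCSF 0h at 1 of 27 time points, 40h (-0.62). It was lower in GCSF-OHT than in IL3-OHT at 15 of 25 shared time points, by up to 1.88 at 136h.

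Pmaip1, which encodes the BH3-only protein NOXA, was not detectable at this depth. It had reads in 16 libraries, at most 2 in any library and 22 in all, and exceeded 3 reads in 0 libraries.

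**Figure D3:**
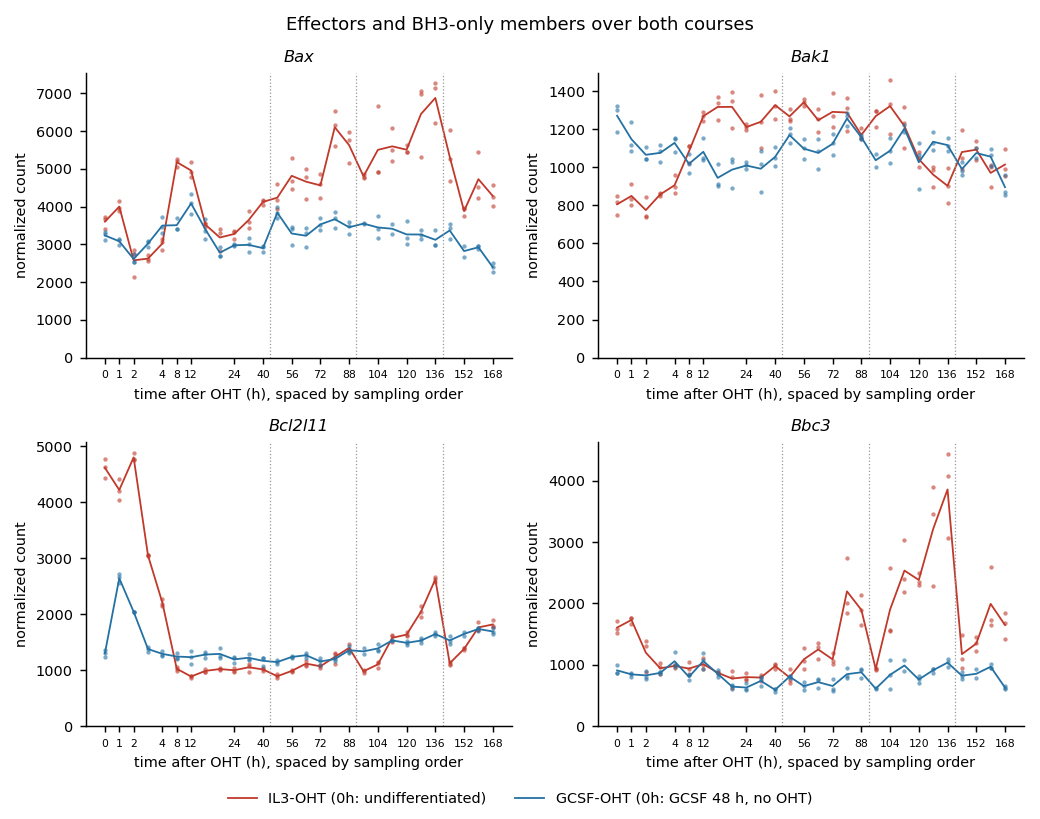
Normalized counts (y axes) of Bax, Bak1, Bcl2l11 and Bbc3 in every library (points) with means (lines), IL3-OHT in red and GCSF-OHT in blue, over time points spaced by sampling order; dotted lines mark renewal of the medium. Bcl2l11 drops between 2h and 12h in IL3-OHT (from 4752 to 4879 down to 863 to 899), and Bbc3 peaks at 136h in IL3-OHT (3060 to 4443).

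At the end of the macrophage differentiation, 3 of 9 members differed from undifferentiated cells, beside 25.4% of all genes. Bcl2a1b was 6.68 ± 0.55 higher (adjusted p = 1.0e-20) and Bcl2a1d 7.70 ± 0.54 higher (adjusted p = 1.2e-25), and Bcl2l11 fell by 1.35 (SE 0.051, adjusted p = 3.6e-48) to 1778, 1781 and 1887. The other 6 members were not called. Bcl2 was at -0.46 (adjusted p = 2.2e-05) without overlap, Mcl1 was at 39178, 36319 and 37680 (0.19, adjusted p = 0.049), Bax at 0.25 (adjusted p = 0.0070), Bcl2l1 at 0.30 and Bak1 at 0.33, each under the threshold of size, and Bbc3 was at 0.03 (adjusted p = 0.89) with overlapping libraries.

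At the end of the neutrophil differentiation, 5 of 9 members differed from undifferentiated cells, beside 39.1% of all genes. Bcl2l1 (-1.08), Bcl2l11 (-1.45) and Bbc3 (-1.35) fell, as did Bax by 0.59 (SE 0.081, adjusted p = 2.5e-10), and Bcl2a1d rose by 1.46 (SE 0.54, adjusted p = 0.014). Bax lay at the threshold and Bcl2a1d had few reads. Without replicate 1, Bax was at -0.57 and Bcl2a1d at 1.20 (adjusted p = 0.115), and 3 members were called, beside 6232 of 17032 genes. Without replicate 2 Bax was at -0.54, and without replicate 3 Bcl2a1d was at 0.99. TMM scaling and edgeR both gave -0.55 for Bax. Against GCSF 0h, 2 of 9 members differed at GCSF-OHT 168h, beside 24.8% of all genes. Mcl1 rose by 1.85 (adjusted p = 4.3e-41) to 31479, 30471 and 29852, and Bcl2 fell by 1.36 (adjusted p = 2.9e-25) to 298, 338 and 238. With edgeR or DESeq2 on whole reads, 4 were called, the others being Bcl2a1b and Bcl2a1d. Over all 17414 genes these called 4252 and 4178, against 4310 with limma. Mcl1 and Bcl2 libraries at GCSF-OHT 168h overlapped with those of undifferentiated cells, at -0.11 and -0.17.

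The change from the start of OHT to 168h differed between the arms for 8 of 9 members, beside 25.7% of all genes. The starts differed by the 48 h in GCSF, so this difference holds the shift at GCSF 0h too. Compared directly at 168h, 5 of 9 members were lower in GCSF-OHT than in IL3-OHT, Bcl2l1, Bcl2a1b, Bcl2a1d, Bax and Bbc3. Mcl1, Bcl2l11, Bcl2 and Bak1 were not called there. Over the shared time points, a median of 24.8% of all genes differed directly. The change in GCSF-OHT from GCSF 0h, less the change in IL3-OHT from undifferentiated cells, was 1.66 ± 0.12 for Mcl1 and 1.72 ± 0.072 for Bcl2l11. It was negative for Bcl2 (-0.90 ± 0.14), Bcl2l1 (-0.64 ± 0.094), Bak1 (-0.84 ± 0.10), Bax (-0.68 ± 0.12), Bcl2a1b (-5.74 ± 0.78) and Bcl2a1d (-6.56 ± 0.76). That of Bbc3 was -0.56 ± 0.21 (adjusted p = 0.019), under the threshold of size. With edgeR the difference of Bcl2a1b, with 0 reads at GCSF 0h, was -2.74 (adjusted p = 0.882). The count of differing members was 3 of 9 at 2h (5.92% of all genes), 5 at 3h (11.1%) and 5 at 4h (15.1%), and 8 of 9 at 8h and at 48h (23.4%).

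**Figure D4:**
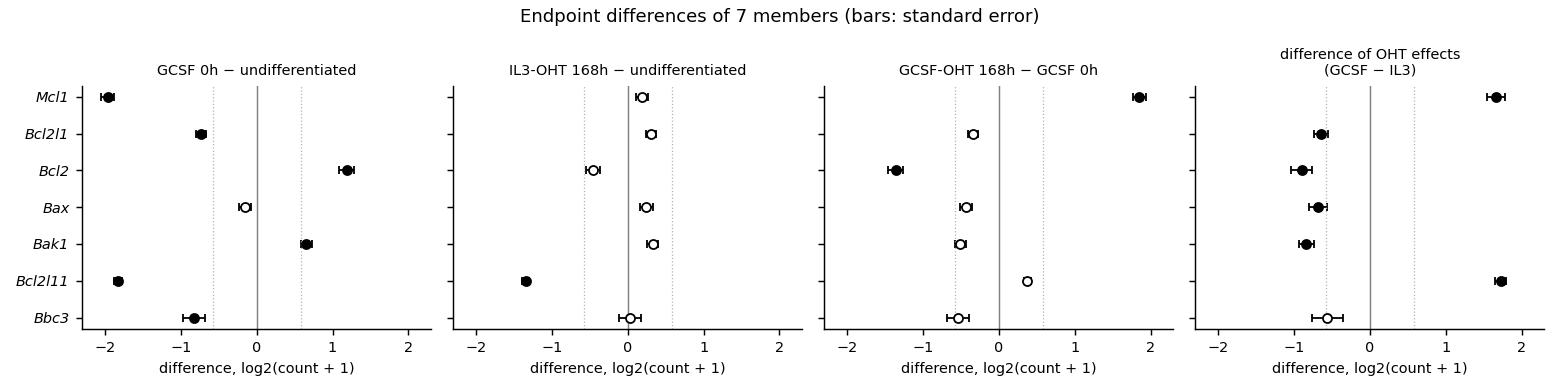
Log2 differences of (normalized count + 1) with their SE (x axis) for 7 members (y axis). Panels show GCSF 0h and IL3-OHT 168h against undifferentiated cells, GCSF-OHT 168h against GCSF 0h, and the difference of the changes after OHT. Filled points were called, open points were not, and dotted lines mark a size of 0.58. Mcl1 lies at -1.96 in GCSF 0h against undifferentiated cells and at 1.85 in GCSF-OHT 168h against GCSF 0h. Bcl2 lies at 1.19 and -1.36 in the same panels.

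Averaged over the 25 shared time points, 4 of 9 members were lower in GCSF-OHT than in IL3-OHT and 0 were higher, beside 24.5% of all genes called in either direction and 15.1% of all genes called lower. Bcl2l1 was -1.61 ± 0.013 (adjusted p = 2.3e-118), Bbc3 -0.75 ± 0.029 (adjusted p = 3.4e-48), Bcl2a1b -4.31 ± 0.11 and Bcl2a1d -5.32 ± 0.11. Mcl1 (-0.48), Bax (-0.45), Bcl2 (0.25), Bcl2l11 (-0.064) and Bak1 (-0.052) did not pass the threshold of size.

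To place the members in time, the means of 3 windows, 1h to 8h, 12h to 72h and 80h to 168h, were compared within each arm. From the first window to the second, 4 of 9 members changed in IL3-OHT (30.1% of all genes), with Bcl2 at 0.89, Bcl2a1b at 2.86, Bcl2a1d at 3.73 and Bcl2l11 at -1.43. In GCSF-OHT 1 did (13.5%), Bcl2a1d at 0.63, which without replicate 2 was 0.32 and lost. This early change differed between the arms for 4 members (19.7%), Bcl2 (-1.0005), Bcl2a1b (-2.33), Bcl2a1d (-3.10) and Bcl2l11 (0.99). From the second window to the third, 6 of 9 members changed in IL3-OHT (20.5%). Bbc3 rose by 1.22, Mcl1 by 0.73, Bcl2l11 by 0.69, Bcl2a1b by 1.74 and Bcl2a1d by 0.72, and Bcl2 fell by 0.74. Thus the transcripts of PUMA and BIM and that of MCL1, which binds both proteins, all rose in the late window. In GCSF-OHT 1 member changed (12.0%), Bcl2, which fell by 0.72. Without replicate 3, 2 were called there, Bcl2a1b at 0.62 being the other. The late change differed between the arms for 3 members (17.7%), Bbc3 (-1.02), Bcl2a1b (-1.22) and Bcl2a1d (-0.95).

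Renewal of medium and OHT was followed by shifts in single genes. At 96h and 144h, the first time points after renewal at 88h and 136h, IL3-OHT libraries differed from the mean of the time points 8 h before and after for 17.5% and 15.4% of all genes, against 1.6% at 48h. Bbc3 was lower at IL3-OHT 96h, at 953, 906 and 938 between 2137, 1647 and 1900 at 88h and 2580, 1554 and 1564 at 104h. This difference was -0.999 ± 0.13 (adjusted p = 1.9e-11), and Bbc3 was the only one of 9 members called at 96h, as 0 were at 48h. At 144h 2 of 9 were called, Bbc3 at -0.97 ± 0.13 and Bcl2l11 at -0.76 ± 0.043. Bcl2l11 held 1115, 1152 and 1099 at 144h against 2655, 2635 and 2577 at 136h and 1388, 1388 and 1358 at 152h. Bbc3 held 941, 1098 and 1479 at 144h, below the 136h libraries and overlapping with those of 152h, so that its value rests on the 136h level. Bcl2l11 at 144h and Bbc3 at 96h were below both neighbours in all 3 libraries. Bcl2l1 was at 3518, 3611 and 3418 at 96h and 3854, 4009 and 4856 at 144h, its highest level in the series, with differences of 0.29 and 0.53 that did not pass the threshold. Mcl1 was at -0.52 and -0.32. Bcl2a1b was at 0.81 and 1.05 and Bcl2a1d at 0.95 and 1.04, which were larger and not called (adjusted p = 0.055 to 0.16). Their SE, 0.47 and 0.46, comes from 1 spread per gene over all groups, including GCSF-OHT groups near the floor. Bcl2a1d at 96h and 144h and Bcl2a1b at 144h were above both neighbours in all 3 libraries. Bcl2a1b at 96h (179.7 to 208.2) was above 88h and overlapped with 104h (138.6 to 196.5). The sum of the 3 Bcl2a1 genes was 839.9 to 868 at 96h, above 364 to 423 at 88h and 573 to 695 at 104h, and 934 to 1059 at 144h, above 321 to 411 at 136h and 701 to 745 at 152h. Over the 3 renewals 3 member values were called in IL3-OHT, 8 with a pseudocount of 5 and 5 with a mean of at least 10. Shares of all genes under these other settings are not given here, so the members cannot be set beside them. Spi1 was higher in the same libraries, by 0.81 at 96h and 0.61 at 144h, and its part in these values was not tested.

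In GCSF-OHT, 1 of 9 members was called at each of 48h (0.35% of all genes), 96h (4.65%) and 144h (1.85%), in each case Bcl2a1d, at 1.49, 1.80 and 1.46, on few reads. Without replicate 1 none of these was called, and without replicate 3 only that at 96h was. Bcl2l1 was at -0.46 at GCSF-OHT 96h, with 664 and 726 in 2 libraries, and this differed from IL3-OHT by -0.75 (7.76% of all genes). At 144h the response differed between the arms for 5 of 9 members (9.66% of all genes), and at 48h for Bbc3 alone (1.6%).

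**Figure D5:**
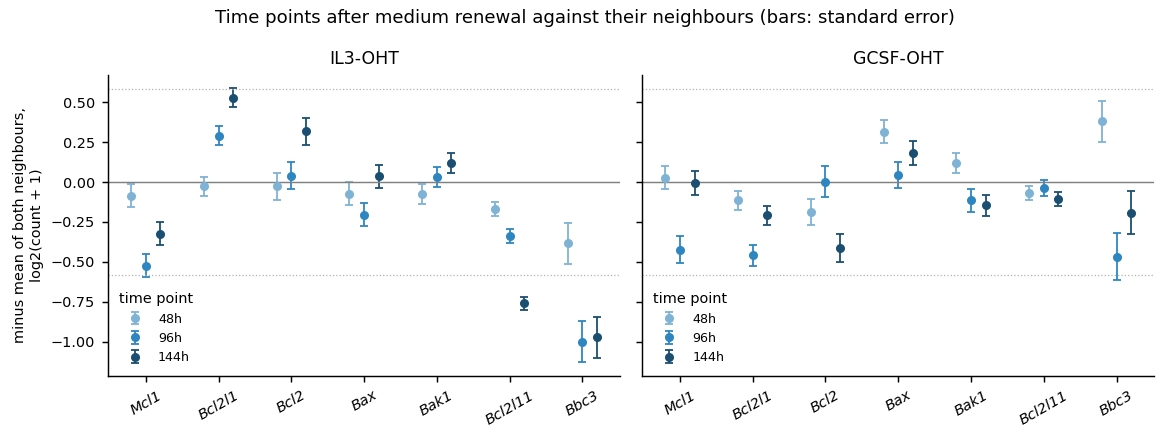
Log2 differences with their SE (y axis) of 48h, 96h and 144h from the mean of the time points 8 h before and after, for 7 members (x axis), in IL3-OHT and GCSF-OHT panels. Dotted lines mark a size of 0.58. Bbc3 lies at -0.999 and -0.97 at IL3-OHT 96h and 144h and Bcl2l11 at -0.76 at IL3-OHT 144h, while the GCSF-OHT points of these genes lie between the dotted lines.

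The rest of the apoptosis machinery was examined in lists of genes. Of 14 tested other BCL2 family genes, 3 rose and 3 fell at GCSF 0h (median -0.013, all genes -0.092), when 13.0% of all genes rose and 20.7% fell. For IL3-OHT 168h these shares were 10.2% and 15.2%, and for GCSF-OHT 168h, against undifferentiated cells too, 15.5% and 23.6%. Bmf, a BH3-only gene, rose by 1.69 at GCSF 0h, by 1.38 in IL3-OHT 168h and by 3.21 in GCSF-OHT 168h against undifferentiated cells, from 75.1 ± 14.3 to 697 ± 39.7 normalized counts (SD, n = 3). Bid, a BH3-only gene cleaved by caspase-8, rose by 1.24, 1.08 and 1.96 in the same comparisons, and Bok, an effector relative, fell by 1.13 and 2.98 in the 168h comparisons. Of 13 p53 genes and targets outside the family, 2 rose and 6 fell at GCSF 0h, 3 rose and 1 fell in IL3-OHT 168h, and 0 rose and 7 fell in GCSF-OHT 168h, with medians of -0.36, 0.14 and -0.74 (all genes -0.092, -0.033 and -0.11). Over shared time points 0 were higher and 7 lower in GCSF-OHT than in IL3-OHT (9.34% and 15.1% of all genes). Among these were Cdkn1a, a cell cycle inhibitor, at -0.93, Phlda3 at -0.86 and Eda2r at -1.15. Bbc3 was lower in GCSF-OHT too, and a link between it and these genes was not tested. Mdm2, which ubiquitinates p53, fell by 2.27 at GCSF 0h.

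Of 16 caspase and apoptosome genes, 3 rose and 4 fell at GCSF 0h. In IL3-OHT 168h 0 rose and 1 fell, Casp4 at -2.67, and in GCSF-OHT 168h 5 rose and 3 fell (medians 0.092, -0.21 and 0.13, beside the medians of all genes above). Of 9 inhibitors of apoptosis, 5 rose and 0 fell in GCSF-OHT 168h against undifferentiated cells (median 0.66, all genes -0.11), with Birc3, which restrains caspase activation downstream of TNF receptors, at 2.42, against 1 and 0 in IL3-OHT 168h (Birc3 1.19). Of 10 death receptor genes, 3 rose and 1 fell at GCSF 0h, where Traf1 fell by 4.24 and Fas rose by 1.097, and 1 rose and 3 fell in IL3-OHT 168h (medians 0.16 and -0.39, all genes -0.092 and -0.033). Of 7 genes for MCL1 turnover, 2 rose and 2 fell at GCSF 0h, Cdc20 (1.42), Ube2c (1.14), Trim17 (-1.40) and Fbxw7 (-0.58). They are listed for turnover of the protein, whereas the fall of Mcl1 at GCSF 0h was in RNA, and a link was not tested. Of 8 partner and channel genes, 1 rose and 1 fell at GCSF 0h, both encoding calcium channels on which BCL2 acts, Itpr1 (0.87) and Itpr3 (-2.33).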

How the data were processed

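RNA-Seq was performed by the authors on polyA RNA in 56 groups by cytokine and time after OHT. The authors quantified reads with Salmon in selective alignment mode against GRCm38 and divided them by DESeq2 size factors, and the deposited normalized counts are therefore a signal on a common scale and not whole reads. The annotation and the step from transcripts to genes are not given in the sources used here. Whole reads were recovered by dividing each library by its value of 1 read, and 100% of the values above 0 came out whole within a relative tolerance of 1e-09.

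Groups were taken from the GEO labels. One limma fit (limma 3.58.1, R 4.3.3, trend) was made on log2(normalized count + 1) with 1 mean per group, over 159 libraries in 54 groups and those 17414 genes that reached 5 normalized counts somewhere. The groups IL3-OHT 96h and IL3-OHT 144h did not enter it, and a second fit with them gave the values after renewal. A fold change on this scale understates the change of low genes. P-values were adjusted by Benjamini-Hochberg over all genes of a comparison, and a call needed an adjusted p below 0.05 together with a log2 change of over 0.58 in either direction. Intervals of ratios are at 95% and cover counting error only, with a floor of 3 reads per library.

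Alternatives were edgeR 4.0.16 (quasi-likelihood) and DESeq2 1.42.0 on the recovered reads, TMM and upper-quartile scaling, pseudocounts of 0.5 and 5, no filter, a mean of at least 10, a replicate block, leaving out each replicate number or 120h, keeping IL3-OHT 96h and 144h, the earlier neighbour alone and the summed Bcl2a1 genes. For GCSF 0h against undifferentiated cells, limma called 5861 genes, edgeR 5663 and DESeq2 5416. For IL3-OHT 168h they called 4423, 4163 and 4040. Same-numbered replicates did not vary together (15 pairs, correlation of deviations -0.0407 to 0.0315, none over 0.1). Replicates differed by more than sampling noise, with a chi-square per gene of 2.29 to 73.2, so each was counted. The scripts were tested on simulated data.

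The members, gene lists and tests were chosen with earlier results of these data known. Beside the members, the text names from each list, per comparison, up to 4 called genes with the largest change and a mean of at least 10, and for each member the 3 genes with the highest Pearson r over group means, among genes with a mean of at least 50. Bcl2a1a and Spi1 were added to the members. Tables were written with Python 3.11.15, numpy 2.4.6, pandas 2.3.3, scipy 1.17.1, matplotlib 3.10.9 and Biopython 1.88. Promoters are those of RefSeq on GRCm38.p6, searched on both strands, and exon lengths are those of GENCODE M21.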

Additional observations from a re-analysis of the deposited data

Results flagged for a closer look

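The change from the start of OHT to 168h differed between GCSF-OHT and IL3-OHT, by a test of the difference itself, for 8 members. The difference, GCSF-OHT minus IL3-OHT on the log2 scale, was 1.66 for Mcl1, 1.72 for Bcl2l11, -0.90 for Bcl2, -0.64 for Bcl2l1, -0.84 for Bak1 and -0.68 for Bax. It was -5.74 for Bcl2a1b and -6.56 for Bcl2a1d, where the starting groups held few or no reads.

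The shift after renewal of medium and OHT differed between the arms in the same way for 7 values. At 48h the difference, GCSF-OHT minus IL3-OHT, was 0.76 for Bbc3. At 96h it was -0.75 for Bcl2l1. At 144h it was -0.73 for Bcl2, -0.74 for Bcl2l1, -1.70 for Bcl2a1b, 0.65 for Bcl2l11 and 0.78 for Bbc3. The values at 96h and 144h rest on the IL3-OHT libraries that stood apart from their neighbours, and the cause was not tested.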

How the results depend on the processing

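Of the member values, 1778 kept their direction and side of the threshold under an alternative, 31 came past it, 20 were lost and 23 changed sign, and for the counts these were 293 kept, 10 larger and 5 smaller. The members called against GCSF 0h in GCSF-OHT 168h were 4 with edgeR and 4 with DESeq2 against 2, when 4252 and 4178 of all genes were called against 4310. For the windows and the renewals, counts of all genes under each setting are not given here. In the late window in GCSF-OHT, 2 were called with a pseudocount of 0.5 and 2 without 120h against 1. In the middle window in GCSF-OHT, 2 were called with a pseudocount of 0.5 and 0 with one of 5 against 1. After renewal in IL3-OHT, 8 were called with a pseudocount of 5, 5 with a mean of at least 10 and 9 against the earlier neighbour alone, against 3. Leaving out each replicate in turn gave 3 to 4 members in GCSF-OHT 168h against undifferentiated cells, 1 to 2 and 0 to 2 in the late and middle windows in GCSF-OHT, 0 to 3 after renewal in GCSF-OHT and 3 to 4 in IL3-OHT, and 5 to 6 at GCSF 0h. All genes called were then 6232 to 6416 in GCSF-OHT 168h, against 6807, and 5376 to 5537 at GCSF 0h, against 5861.

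Values that changed sign were not called with all libraries, and the cause was not tested. Leaving out each replicate in turn, Bcl2a1b at GCSF 0h reached 0, and Bcl2a1d there ranged from 0 to 0.47. Bbc3 in IL3-OHT 168h ranged from -0.00517 to 0.094, Bcl2 and Bcl2a1b in GCSF-OHT 168h against undifferentiated cells from -0.29 to 0.0062 and from -1.15 to 1.40, and Bcl2a1b against GCSF 0h from 0 to 1.40. After renewal in IL3-OHT, Bcl2 and Bax at 48h ranged from -0.071 to 0.0036 and from -0.16 to 0.016, and Bax at 144h from -0.041 to 0.14. In GCSF-OHT, Mcl1 at 48h ranged from -0.00295 to 0.044, Bcl2 and Bcl2l11 at 96h from -0.0970 to 0.16 and from -0.11 to 0.028, and Mcl1 and Bcl2a1b at 144h from -0.039 to 0.028 and from -1.92 to 0.24. Against the earlier neighbour alone, Mcl1 and Bax at IL3-OHT 48h were 0.0068 and 0.036, Bcl2 at IL3-OHT 96h -0.073 and at GCSF-OHT 96h -0.12, Bax at IL3-OHT 144h -0.37 and Mcl1 at GCSF-OHT 144h 0.097. TMM scaling gave 0.00018 for Mcl1 in the middle window in IL3-OHT, and upper-quartile scaling -0.000729 for Bcl2 at GCSF-OHT 96h.

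Same-numbered replicates share only a number. With a replicate block, 6 members were called at GCSF 0h, 3 in IL3-OHT 168h and 5 in GCSF-OHT 168h against undifferentiated cells. There were 2 in GCSF-OHT 168h against GCSF 0h, 4 over shared time points and 8 for the difference of the changes after OHT. These are the same counts as without the block. Depth limits Bcl2a1b and Bcl2a1d outside IL3-OHT, and Pmaip1 everywhere.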

Other observations

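For each of the 9 tested members, the 3 genes with the highest Pearson r over the 54 group means are given, out of 10646 compared. As they were picked for a high r, the values are descriptions only. The groups also share cytokine and time course. Bcl2l1 followed Ccnd2, a cell cycle gene (Pearson r = 0.96), with Dab2 and Rnf183 at the same value, and Mcl1 followed Bhlhe40, a transcription factor gene (0.94), Maff (0.93) and F10 (0.93). Bcl2a1b followed Arg1, the arginase of alternatively activated macrophages (0.98), Bcl2a1d (0.96) and Ccl6, a myeloid chemokine (0.96). Bcl2a1d is its near-identical paralog, and the split of reads between them is uncertain. Bcl2a1d followed Ccl6 (0.96), Arg1 (0.95) and Fabp5 (0.94). Bbc3 followed Slc48a1, a heme transporter gene (0.96), Usp22 (0.95) and Gpsm1 (0.95), and Bcl2l11 followed Armcx5 (0.93), Heca (0.92) and Rbm39 (0.92). Bax followed Sympk (0.92), Cpox (0.91) and Mta1 (0.89), Bcl2 followed Gbp3 (0.87), Uri1 (0.84) and Cdca7l (0.83), and Bak1 had the lowest values, with Lrfn1 (0.82), Gcat (0.80) and Ap2s1 (0.79).

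Among the members themselves, r is given over the 26 groups of the IL3 arm and the 28 groups of the GCSF arm. It was 0.90 in IL3 and 0.11 in GCSF for Mcl1 and Bbc3, 0.71 and 0.34 for Bax and Bbc3, -0.72 and -0.24 for Bcl2a1d and Bcl2l11, and -0.94 and -0.024 for Bcl2l11 and Bak1. It was -0.28 and -0.71 for Bcl2 and Mcl1, and -0.20 and 0.76 for Bcl2l1 and Bcl2l11. The difference of these values between arms was not tested.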
